A study of Homo sapiens with 10 samples.

Results

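The respiratory chain passes electrons from NADH to oxygen through complexes I, III and IV, and ATP synthase uses the resulting proton gradient to make ATP. Most subunits of these complexes are encoded in the nucleus, translated in the cytosol and imported, while a few core subunits are made inside the organelle by the mitochondrial ribosome (mitoribosome), whose proteins are themselves encoded in the nucleus. Described here are the nuclear genes of this machinery in maps of 5-methylcytosine (m5C) in polyadenylated RNA. They were chosen by symbol, as protein-coding genes that start with NDUF (complex I), UQCR (complex III), COX and a digit (complex IV), ATP5 (ATP synthase), MRPL or MRPS (named for the large and small mitoribosomal subunits). Large and small subunit genes are told apart here by symbol alone. Of 181 such genes, the 3 that lie in the mitochondrial genome (COX1, COX2 and COX3) were left out, which gave 178 of the 20043 nuclear protein-coding genes.

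The maps came from MeRIP-seq (methylated RNA immunoprecipitation with sequencing), in which fragmented RNA is enriched with an antibody against m5C and compared with the unenriched input. Untreated MDA-468 cells, a human breast cancer line, were set against untreated MCF-10A cells, a non-tumorigenic human mammary epithelial line, with 2 MeRIP and 2 input libraries each and 2 technical replicates of the MCF-10A MeRIP. Each condition is thus 1 cell line, and the labels give a single culture description, naming MDA-MB-468, for all samples. The deposited files hold 1 merged list of sites per line and 1 table of differential sites, with no value per library, so that depth is unknown, no value has a replicate error and no test over samples could be made.

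A site says that the authors' caller found enrichment over input, not how much of a transcript is present, so the identity of the lines could not be checked against transcript levels. Of the markers for cell types foreign to an epithelial culture, 2 of 6 fibroblast, 1 of 5 blood and 3 of 4 endothelial markers had a site in either line. All nuclear protein-coding genes counted 25.3%. PTPRC and PECAM1 had a site in both lines, COL3A1 in MCF-10A only, and COL1A1, KDR and VWF in MDA-468 only. These few genes are not read as signs of other cells. The MCF-10A list held 5194 sites and the MDA-468 list 8320.

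Of the 178 genes, 32 (18.0%) carried a site in at least 1 line, against 25.3% of all nuclear protein-coding genes. In MCF-10A the members stood close to the background, with 29 genes (16.3%, against 15.2%). In MDA-468 they stood below it, with 28 genes (15.7%, against 22.4%). The members with a site were mostly the same in the lines, 25 genes having one in both, and 12.3% of all genes did so. Listed in MCF-10A alone were 4 members (2.25%), ATP5MJ, MRPL42, MRPL44 and MRPL49, against 2.87% of all genes. Another 3 members (1.69%) had one in MDA-468 alone, MRPL21, NDUFA13 and NDUFA5, against 10.1%. With sites of a p-value of at most 1e-10, the members listed in MCF-10A alone numbered 7, and with both lists at the same length 9. These limits took 5 and 6 members from the MDA-468 list. The shares of all genes under them are not given here, so 7 and 9 are not to be set against 2.87%. Of the members with any site, 78.1% had it in both lists and 9.38% in MDA-468 only. All protein-coding genes with any site counted 48.6% and 40.0%. For 119 other nuclear genes of mitochondrial function, described below, these shares were 65.2% and 13.0%. A low share in MDA-468 only was thus not particular to the members. The difference between members and other genes was not tested, since genes are not replicates, and presence in a single list does not amount to a tested contrast of the cells.

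**Figure D1:**
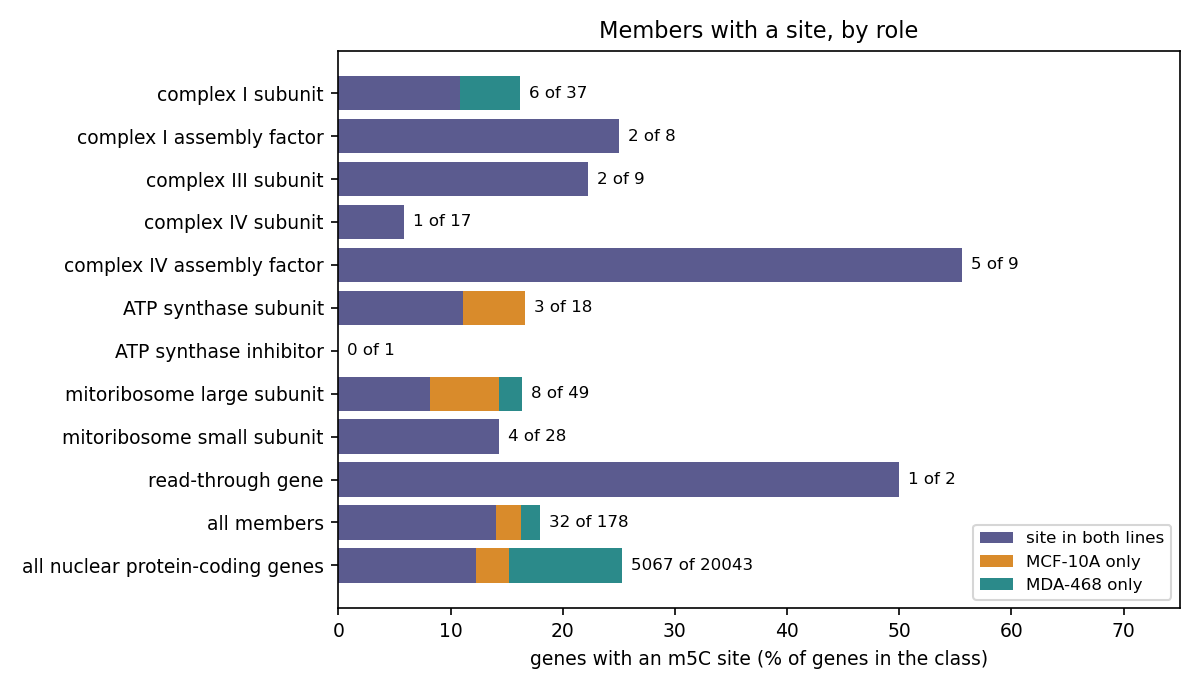
Share of genes with an m5C site (horizontal axis, % of the genes of a class) for each role among the 178 members, for all members and for all nuclear protein-coding genes, split by colour into sites listed for both lines, for MCF-10A alone and for MDA-468 alone; labels give the number of genes with a site of all genes in the class. Complex IV assembly factors reach 5 of 9 genes, while complex IV subunits reach 1 of 17.

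By role, complex IV assembly factors had a site in 5 of 9 genes (55.6%) and complex I assembly factors in 2 of 8 (25.0%), where all protein-coding genes counted 25.3%. All 7 of these assembly factors had their site in both lines, as had 48.6% of all protein-coding genes with any site. COX16 was not listed in MDA-468 at a p-value of at most 1e-10 or with lists of equal length. Without sites that overlap a site of another gene, COX16 and COX20 dropped out of both lists. Assembly factors and small subunits outside the symbol rule had a site in 8 of 32 genes, 5 of them in both lines. A site stood in 12 of 81 subunits of complexes I, III, IV and ATP synthase (14.8%) and in 12 of 77 mitoribosomal proteins with MRPL or MRPS symbols (15.6%). The longest coding transcripts of the 17 assembly factors had a median 3' UTR of 1255 nt, against 278 nt for those subunits and 462 nt for the mitoribosomal proteins. These counts carry no test, and the part of transcript length in them was not tested. ATP5IF1, the inhibitor of ATP synthase, had no site.

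Member transcripts were short, with a median of 1444 nt against 2974 nt for all protein-coding genes, in the longest coding transcripts of GENCODE 29. Among transcripts of up to 1 kb, 7.14% of 56 members had a site, against 5.85% of all genes. Between 1 and 2 kb the shares were 7.25% of 69 members and 13.2%, between 2 and 4 kb 42.1% of 38 members and 26.0%, and above 4 kb 46.7% of 15 members and 39.4%. Members with a site in both lines had a median transcript of 2518 nt and a median 3' UTR of 1686 nt. In the 146 members without a site these were 1260 nt and 319.5 nt, while the coding sequence was of like length, at 483 and 466.5 nt.

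Members with a site also differed from the others in the repeat content of their transcripts. Alu elements are short interspersed repeats of primates, each made of a pair of related arms. The 14-nt sequence found in the largest number of longest coding transcripts (2725 of 19117, or 14.3%, counting both strands and sequences with at least 2 of each base) was CCTGTAATCCCAGC, a stretch of the Alu consensus, called the Alu core here. It stood in 40 of the 178 members (22.5%), in 17 of the 25 with a site in both lines (68.0%), in 4 of the 4 listed in MCF-10A alone and in 0 of the 3 listed in MDA-468 alone. Of the members without a site, 19 of 146 (13.0%) held it. For all protein-coding genes the shares were 61.4%, 27.6%, 3.96% and 6.95% in the same order. Read the other way, 52.5% of members with the core and 7.97% of members without it had a site, against 64.1% and 20.2% of all genes. Transcripts with the core were also longer. Members with the core as written had a median of 2605 nt, those with its reverse complement alone 1922 nt and those without it 1171 nt. For all genes the medians were 5099, 4605 and 2724 nt. The parts of length and core in these shares were not tested apart.

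**Figure D2:**
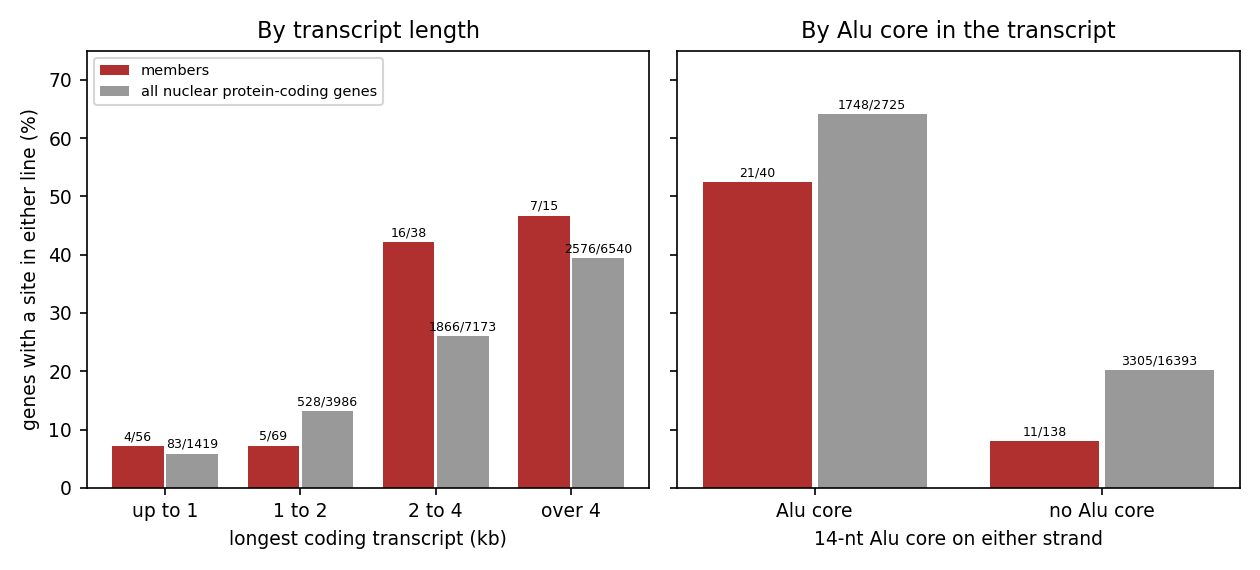
Share of genes with a site in either line (vertical axis, %) by length of the longest coding transcript (left, kb) and by presence of the 14-nt Alu core on either strand (right), for the members and for all nuclear protein-coding genes; numbers above the bars are genes with a site over genes in the class. Among members the share is 7.14% up to 1 kb and 46.7% above 4 kb, and 52.5% with the core against 7.97% without. Transcripts with the core are also longer, and length and core are not separated here.

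The core of MRPL10 is shown because its copy was the one that fell into a coding sequence, at position 523 of the transcript. The window of 30 nt comes from the GENCODE 29 transcript (GRCh38, chromosome 17), reads 5' to 3' along it and has the core in capitals, here as the reverse complement, so that the Alu element lies opposite to the transcript.

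MRPL10: ctcaagtaGCTGGGATTACAGGccggctgc

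Of the copies in member transcripts, 40 along and 39 opposite to the Alu strand lay in 3' UTRs, 4 in 5' UTRs and 1 in a coding sequence. Of 44 neighbouring copies, 14 shared 1 orientation and stood 133 to 141 nt apart. Of 25 members with a core along the Alu strand, 14 were listed in both lines and 1 (MRPL42) in MCF-10A alone, while the 15 with the opposite core alone counted 3 and 3. Over all protein-coding genes this contrast was absent, with 55.7% and 54.9% of genes having a site in both lines for these orientations. The transcripts are of another genome build than the sites, so whether a site covers a copy of the core was not analysed here.

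Complex I, the NADH dehydrogenase, had a site in 6 of 37 subunit genes, and NDUFS1, NDUFS3, NDUFS7, NDUFS8, NDUFV1 and NDUFV2, which encode subunits of the catalytic core, were not among them. NDUFC2, an accessory subunit of the membrane arm, had 1 site in each list. It spanned 77779542 to 77779870 of chromosome 11 (hg19, minus strand) in MCF-10A, with a p-value of 1e-210 that ranked 601 among the 5194 sites of that list. In MDA-468 it spanned 77779602 to 77779840, within the former, with a p-value of 6.3e-25 that ranked 1538 of 8320. These p-values depend on depth and are read only within a list.

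NDUFV3, an accessory subunit of the NADH-binding module, had sites of 357 nt in MCF-10A and 298 nt in MDA-468 on chromosome 21, the second within the first. NDUFA10 and NDUFA11, other accessory subunits, each had 1 MCF-10A site and 2 MDA-468 sites. In both genes 1 MDA-468 site overlapped the MCF-10A site and the other did not. The extra site of NDUFA11 (5892456 to 5892576 of chromosome 19, 121 nt) lay 988 nt from its neighbour, and that of NDUFA10 (240953754 to 240953844 of chromosome 2, 91 nt) lay 54363 nt away.

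The complex I genes with sites in MDA-468 alone rested on weaker or shared calls. NDUFA5, an accessory subunit of the matrix arm, had 1 site of 61 nt at 123196762 to 123196822 of chromosome 7, whose p-value of 1.6e-06 ranked 8046 of 8320. NDUFA13, an accessory subunit also known as GRIM-19, had 2 sites, both overlapping sites listed under YJEFN3, the neighbouring gene on the same strand. Its site at 19644126 to 19644276 of chromosome 19 also overlapped a site that the MCF-10A list holds under YJEFN3. Of the assembly factors, NDUFAF1, which acts in building the membrane arm, had a site with identical ends in both lists (41686253 to 41686551 of chromosome 15, 299 nt). NDUFAF7, a methyltransferase that acts in the assembly of complex I, had sites of 330 and 240 nt in MCF-10A and MDA-468 that ended at the same base, 37476094 of chromosome 2.

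Complex IV, cytochrome c oxidase, had most of its sites in assembly factors. The insertase COX18, which places the tail of mitochondrial COX2 in the inner membrane, had 2 sites in each line. The longer one measured 690 nt in MCF-10A (73922486 to 73923175 of chromosome 4) and 630 nt in MDA-468, the longest member site in either list. COX19, a copper chaperone of the intermembrane space, had 2 MCF-10A sites and 3 MDA-468 sites. Its site at 1005351 to 1005619 of chromosome 7 had the same ends in both lists, and the third MDA-468 site (61 nt, p-value 2.2e-08) ranked 6882 of 8320.

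COX15, an enzyme of heme A synthesis, had sites of 270 nt in MCF-10A and 181 nt in MDA-468 on chromosome 10. COX20, a chaperone of COX2, had sites of 298 and 120 nt, and COX16, another assembly factor of COX2, of 267 and 60 nt. The COX20 sites overlapped sites listed on the opposite strand under an Entrez identifier without a name in the table used. The COX16 sites overlapped sites of the read-through gene SYNJ2BP-COX16. Nothing in the sources used here says that reads kept their strand, so COX20 and its partner on the opposite strand cannot be told apart. COX16 and its partner lie on the same strand, where strand could not separate them. Other members also lie in genes that overlap another annotated gene. Among them, MRPS16 overlaps DNAJC9 and COX19 overlaps ADAP1 on the same strand. NDUFC2 overlaps NDUFC2-KCTD14 on the same strand and THRSP on the opposite one. MRPL49 overlaps FAU and SYVN1 on the opposite strand. Whether their sites lie in the shared stretch was not analysed. Of the subunits, COX6B2, the testis isoform of subunit 6B, had a site in both lists, at 55861159 to 55861575 of chromosome 19 in MCF-10A (417 nt) and within it in MDA-468 (239 nt). Its widely expressed paralog COX6B1 had none, nor had COX4I1, COX5A, COX5B, COX6C or COX7C.

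**Figure D3:**
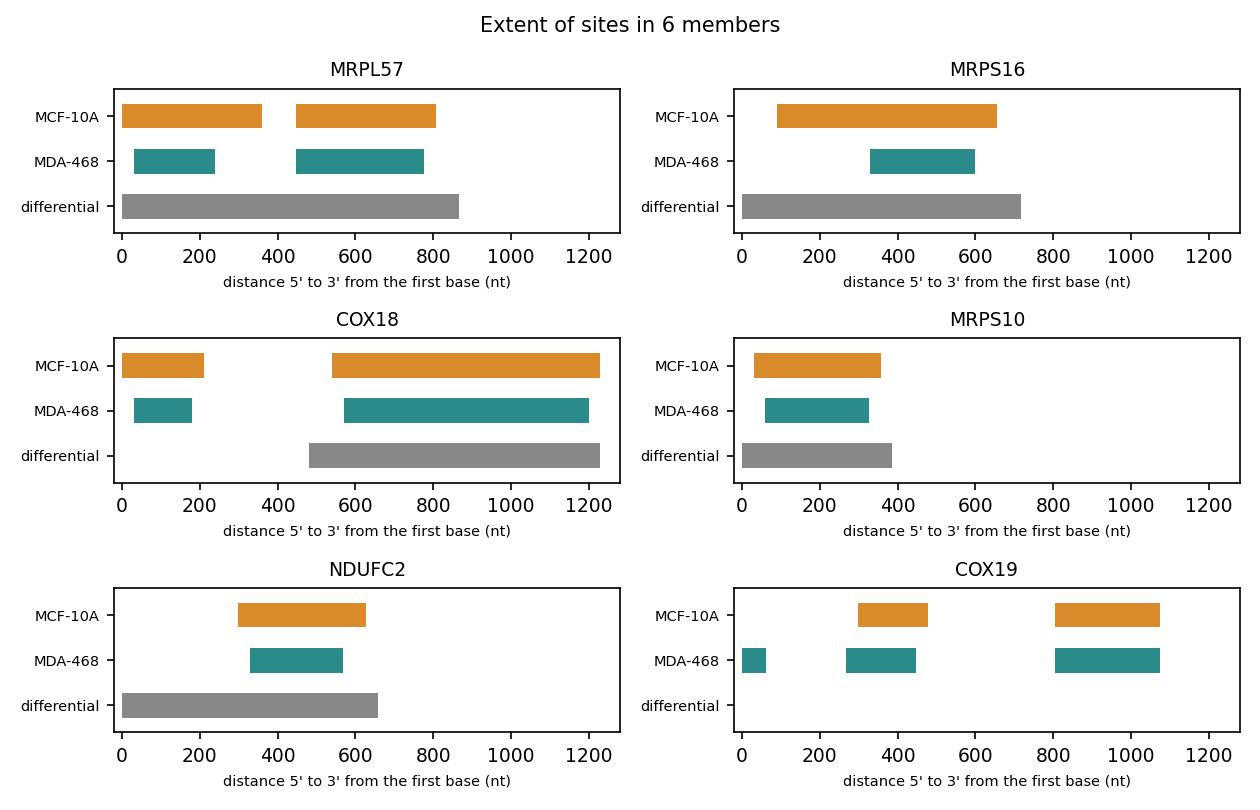
Extent of sites in 6 members along the transcript direction (horizontal axis, nt of genome from the first base of the leftmost site drawn), with bars for the MCF-10A list, the MDA-468 list and the authors' differential table. In MRPL57 and COX18 the MDA-468 bars lie within the MCF-10A bars, in COX19 1 site has the same ends in both lists, and the differential site of NDUFC2 is 657 nt long against 329 and 239 nt in the lists.

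In complex III, the cytochrome bc1 complex, the small subunits UQCRB and UQCRQ had 1 site in each line and the other 7 members none. UQCRB sites measured 329 nt in MCF-10A and 150 nt in MDA-468, and UQCRQ sites 300 and 210 nt. Both MDA-468 sites shared their last base in genome order with the MCF-10A site, at 132203968 of chromosome 5 for UQCRQ.

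In ATP synthase, the site of ATP5PB, the peripheral stalk subunit b, began at 112004316 of chromosome 1 in both lists and ran for 210 nt in MCF-10A and 150 nt in MDA-468. ATP5MGL, a copy of the gene of subunit g, had sites of 326 and 208 nt on chromosome 22, in a gene that lies within CYB5R3 on the same strand. ATP5MG, the gene of subunit g, had no site. ATP5MJ, a small membrane subunit, had 1 site of 60 nt in MCF-10A only, at 104379662 to 104379721 of chromosome 14, with a p-value of 7.6e-09 that ranked 5191 of 5194. The read-through gene ATP5MF-PTCD1 had 2 MCF-10A sites and 3 MDA-468 sites, all of which overlapped sites listed under PTCD1 as well. ATP5MF itself had none, so these calls cannot be assigned to the ATP synthase part of the read-through.

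Of the mitoribosomal genes counted by symbol, 8 of 49 MRPL and 4 of 28 MRPS genes had a site. Genes of mitochondrial translation with other symbols, such as DAP3 and PTCD3, are not in these counts. MRPL57 had 2 sites in each line, and the site with the smallest p-value of all member sites in MDA-468 was here, at 21752683 to 21753011 of chromosome 13 (2.5e-47, rank 263 of 8320). Its counterpart in MCF-10A began at the same base and ended at 21753041 (1e-194, rank 688 of 5194). The first MRPL57 site measured 359 nt in MCF-10A and 209 nt in MDA-468. MRPS10, a protein with bacterial counterparts, had sites of 327 and 267 nt on chromosome 6, and MRPS16, likewise conserved in bacteria, of 568 and 270 nt on chromosome 10.

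MRPL30 had 3 sites in each line. The first had identical ends and blocks in both lists, 21, 126 and 63 nt of exon separated by 1249 and 24652 nt, and it overlapped sites listed under LIPT1 on the same strand. The last, 121 nt at 99812848 to 99812968 of chromosome 2, was also identical. MRPL10 was the other member whose site crossed an exon junction in the site lists, with blocks of 98 and 23 nt in MCF-10A and 38 and 23 nt in MDA-468. MRPS27, a pentatricopeptide repeat protein, had a site with identical ends, 71516193 to 71516402 of chromosome 5. MRPS25 sites measured 121 nt in MCF-10A and 150 nt in MDA-468, and MRPL52 sites 356 and 148 nt.

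The mitoribosomal genes with a site in 1 list only stood at different places in those lists. In MCF-10A, MRPL49 (209 nt, p-value 2.5e-53) ranked 2594 of 5194, MRPL44 (238 nt, 1.3e-35) ranked 3282 and MRPL42 (90 nt, 1.6e-17) ranked 4477. In MDA-468, MRPL21 had a site of 208 nt at 68660029 to 68660236 of chromosome 11 with a p-value of 1.3e-34. This ranked 647 of 8320, which made it the strongest call among members with a site in that line alone.

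Over all members, the MCF-10A list held 35 sites and the MDA-468 list 39. Of the MCF-10A sites, 31 (88.6%) overlapped an MDA-468 site by at least 1 bp of exon, against 74.3% of all sites of that list. Of the MDA-468 sites, 32 (82.1%) overlapped an MCF-10A site, against 47.7%. Member sites had a median length of 270 nt in MCF-10A (range 60 to 690), the same as all sites of the list. In MDA-468 it was 208 nt (60 to 630), against 180 nt for all sites.

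Within the 31 overlapping pairs of 1 gene, the MCF-10A site was longer in 23, of equal length in 6 and shorter in 2, MRPS25 and NDUFA10. The MDA-468 site lay inside the MCF-10A site in 23 of 31 pairs, and in 3099 of the 4133 overlapping pairs of the whole lists. The median difference was 60 nt in both sets. Both ends were identical in 5 member pairs (16.1%, against 7.31%), those of COX19, MRPS27, NDUFAF1 and 2 of MRPL30. Lengths moved in steps, since 38 of 39 member sites in MDA-468 and 29 of 35 in MCF-10A were within 2 nt of a multiple of 30 nt, as were 96.9% and 95.0% of all sites.

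**Figure D4:**
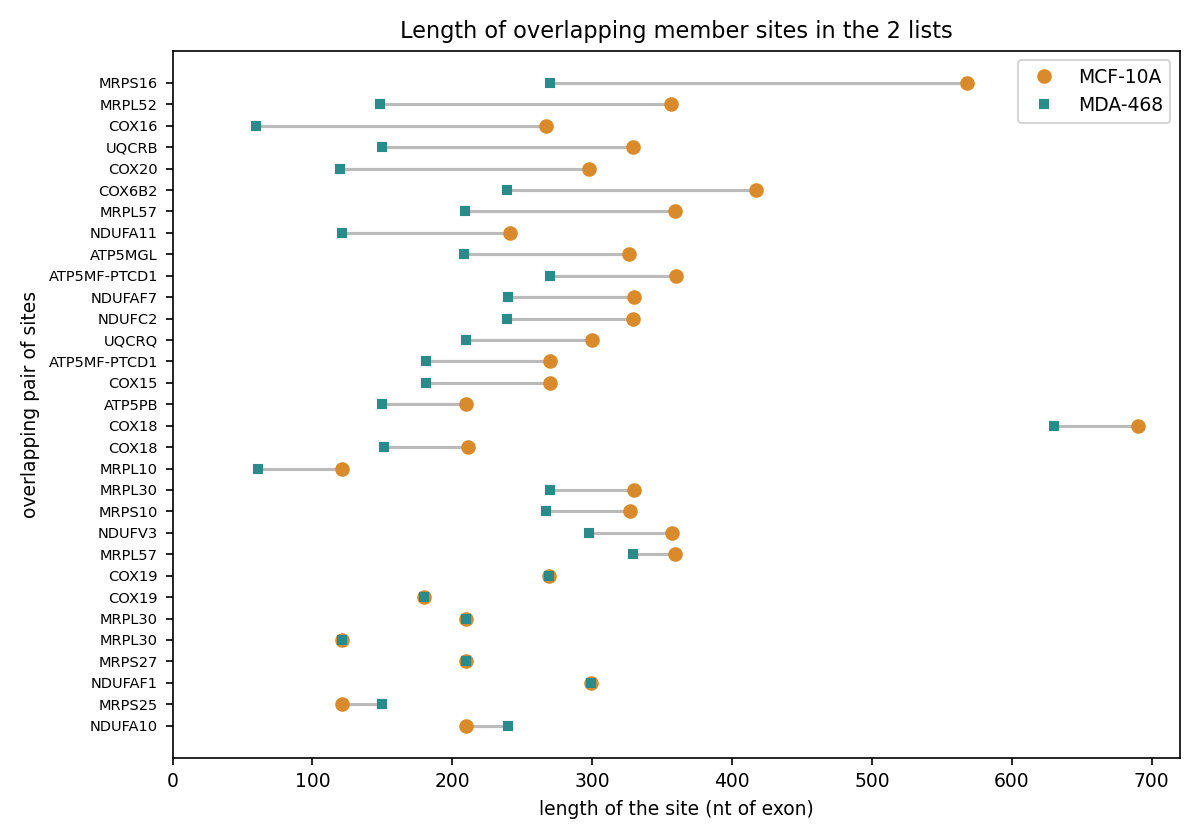
Length of the 31 overlapping pairs of member sites (horizontal axis, nt of exon; circles MCF-10A, squares MDA-468), ordered by the difference between the lists. The MCF-10A site is longer in 23 pairs, most of all in MRPS16 (568 against 270 nt), and shorter in MRPS25 and NDUFA10.

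Differential sites were listed for 7 members (3.93%), against 6.63% of all protein-coding genes. All 7 had their higher value in MCF-10A, per the authors' deposited table, where 5.21% of protein-coding genes had a site in that direction and 1.47% one in the other. Since MCF-10A had the higher value at 78.3% of all 1795 sites in the authors' deposited table, a count of 7 in that direction is read against that share and not as a property of the members. Of the 25 members listed in both lines, 5 (20.0%) had a differential site, against 39.7% of all genes so listed.

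NDUFC2 had a log2 fold change (MDA-468 over MCF-10A) of -2.45 and a fold enrichment over input of 20.0 in the authors' deposited table, where the site ran from 77779512 to 77780168. MRPS16 followed with -2.40 and the smallest log10 false discovery rate of the members, -10.3, in the authors' deposited table. MRPL57 stood at -1.77 in the authors' deposited table, in 1 site of 866 nt that covers both sites of each list. MRPS10 (-1.54) and COX18 (-1.21) were nearer to 0 in the authors' deposited table, and 97.3% of the sites higher in MCF-10A had a lower value than COX18.

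MRPL49 was the one member with a site in a single list that also had a differential site, with a log2 fold change of -1.76 and a fold enrichment of 6.35 in the authors' deposited table. COX8A, a small subunit of complex IV, had the lowest log2 fold change of the members, -3.02, in the authors' deposited table. Its site of 60 nt crossed an exon junction of chromosome 11, with blocks of 39 and 21 nt, and overlapped no site of either list. Fold enrichment there was 1.17 and the peak p-value 0.00091 in the authors' deposited table, and 0.279% of the sites in that table had a lower enrichment. An absolute log2 fold change of at least 2 was reached by 3 members, NDUFC2, MRPS16 and COX8A, in the authors' deposited table. The share of all differential sites that reach this limit is not given here, so the 3 are not read as a property of the members. The median log2 fold change of the 7 member sites was -1.77, against -1.96 for all sites of that direction in the authors' deposited table.

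**Figure D5:**
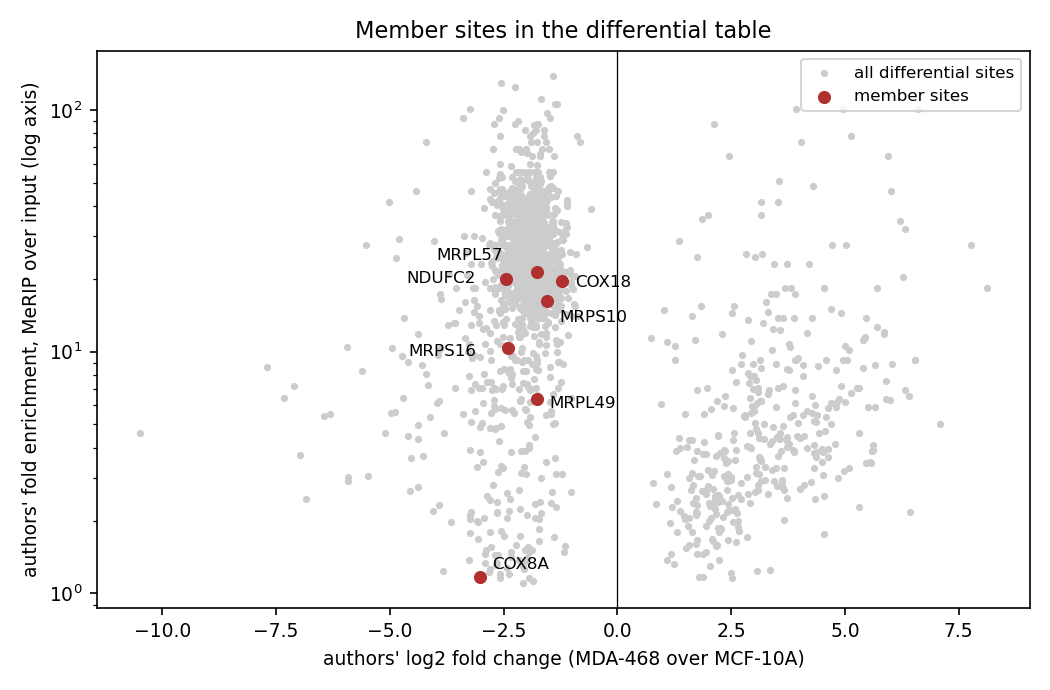
The authors' log2 fold change (horizontal axis, MDA-468 over MCF-10A) and fold enrichment of MeRIP over input (vertical axis, log scale) for all 1795 differential sites (grey) and the 7 member sites (red, named). All member sites lie on the MCF-10A side, between -3.02 and -1.21, and COX8A lies at the bottom with an enrichment of 1.17.

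Other nuclear genes of mitochondrial function, taken from lists outside the symbol rule, had sites in 23 of 119 cases (19.3%), where the members counted 18.0% and all protein-coding genes 25.3%. Genes of mitochondrial translation and gene expression outside the symbol rule counted 11 of 31. Of these, 7 had a site in both lines, among them FASTKD2 and LRPPRC, which stabilises mitochondrial mRNA. DAP3 and PTCD3 had one in MCF-10A only, MTERF4 and TFB1M in MDA-468 only. Assembly factors and small subunits of the chain counted 8 of 32, with COXFA4, COA7 and LYRM7 among the 5 in both lines. Only 1 of 13 genes of complex II and electron carriers had a site (CYCS, which encodes cytochrome c). The citric acid cycle and pyruvate dehydrogenase together counted 2 of 18 (OGDH and PDHA1), and protein import 1 of 25 (TIMM50). In the authors' deposited table, 10 of the 119 genes had a site that was higher in MCF-10A and 1 had one that was higher in MDA-468, where all protein-coding genes counted 5.21% and 1.47%.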

How the data were processed

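Per the labels, m5C MeRIP and input libraries came from both cell lines. The build hg19 is listed along with the aligner TopHat, per the submitters' processing notes. The differential table names exomePeak, Tophat2 and a UCSC gene set, per the file headers. The merging of replicates is not given in the sources used here. Every listed site carries a p-value deposited by the authors. The differential table holds a fold enrichment (a ratio), a log2 fold change and log10 values of the p-value and the false discovery rate (handled as a score), all deposited by the authors. The direction of the comparison can be read either way from its labels. Of its 389 positive log2 fold changes, 381 overlapped the MDA-468 list and 19 the MCF-10A list, so positive was read as higher in MDA-468.

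Entrez identifiers were named through RefSeq. Overlap meant at least 1 bp of exon on the same strand, except that overlap with sites of other genes was sought on either strand. Transcript features came from the longest coding transcript in GENCODE 29 (GRCh38), found for all 178 members, and were never joined to hg19 coordinates. Every member with a site or a differential site is named. The members and lists were chosen with earlier results of these data known. Every result is a description without a test. Overlap and motif search were tested on simulated data. Python 3.11.15, pandas 2.3.3, numpy 2.4.6, scipy 1.17.1 and matplotlib 3.10.9 were used.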

Additional observations from a re-analysis of the deposited data

How the results depend on the processing

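The number of members with a site in MCF-10A only was 4 with all sites, 7 with sites of a p-value of at most 1e-10 and 9 when both lists had the same length, the stricter limits taking 5 and 6 genes from the MDA-468 list. The same counts over all genes are not given here, so the rise is not read as a property of the members. Members with a differential site, all with the higher value in MCF-10A per the authors' deposited table, numbered 7, or 3 with an absolute log2 fold change of at least 2. The other 40 recomputed values, over alternative limits, overlap rules and member sets, stayed within 1.5 times the reported count or, for medians, within the interval of the median or the range of the values. Leaving out member sites that overlap a site of another gene, a choice made after the data were seen, gave 26 members in MCF-10A, 24 in MDA-468 and 22 in both. No paired analysis was possible because the files hold no values per library, and for the same reason no replicate could be left out.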
